A study of Homo sapiens with 8 samples.

Results

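The 48 genes described here encode the enzymes and membrane proteins of the lysosome, the subunits of the vacuolar ATPase (V-ATPase) and the transcription factors TFEB and TFE3. They were taken as a list of gene symbols, matched through Entrez gene numbers. No cutoff on a measured value set the list, but it was chosen with earlier results of these data known. They are 48 of the 22653 entries listed over 8 RNA-seq libraries, and all 48 were in the files. Of these, 31 are lysosomal genes (8 for membrane proteins, 9 for proteases, 8 for glycosidases and sulfatases, 6 for lipid enzymes and activators), 15 belong to the V-ATPase (5 for the V0 sector, 8 for the V1 sector, 2 accessory proteins) and 2 are the transcription factors. All libraries came from U937 cells, a human monocytic leukemia line, in which SLC19A1, the reduced folate carrier, had been knocked out (SLC19A1-/-). The groups were the line with a doxycycline-inducible SLC7A2 after doxycycline (dox, 1 µg/mL for 24 h), the SLC7A2 line without dox, the line with an inducible SLC7A1 after the same dox, and the SLC7A1 line without dox. SLC7A1 and SLC7A2 encode transporters of arginine and lysine, and each group held 2 libraries, numbered 1 and 2 in the labels. No library here comes from dox-treated cells without a construct, so the drug and the transporter cannot be told apart, and the labels do not say whether a line is 1 clone.

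Lysosomes break down proteins, sugar chains and lipids with hydrolases that work in acid. The V-ATPase keeps the inside acid: its V1 sector splits ATP in the cytosol and its V0 sector carries protons through the membrane. TFEB and TFE3 bind a short DNA element in promoters of many of these genes and are held in the cytosol by mTORC1, a kinase that senses amino acids, arginine among them.

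The libraries held 17309132 to 18441833 expected counts each, and a count of 3, taken as the floor, was 0.163 to 0.173 CPM (counts scaled to the library total; for single genes below, with TMM factors). No label states that the replicates were grown as separate cultures, so p-values cover only how far these samples differ from each other, and that spread may be technical. In a principal component analysis of all 17503 entries past the count filter, the first component held 27.4% of the variance, and the SLC7A2-line libraries numbered 2 stood apart at 68.1 (dox) and 55.3 (no dox), against -52.7 to -3.67 for the other 6. The tagged SLC7A2 transcript had 4947 CPM in SLC7A2 dox 2 and 264 CPM in SLC7A2 dox 1, against 9.65 CPM in SLC7A2 no dox 2 and 0.563 CPM in SLC7A2 no dox 1. The 12 monocytic markers summed to 2745 and 3245 TPM in the SLC7A2-line libraries numbered 2, against 3974 to 5434 TPM in the other 6, with MPO near 0 in all. That gap lay in ELANE, AZU1 and PRTN3, proteins of myeloid granules: the other 9 markers summed to 1299 (dox) and 1357 (no dox) TPM in the SLC7A2-line libraries numbered 2, against 1147 to 1318 TPM in the other 6. Fibroblast markers summed to 14.9 TPM in SLC7A2 no dox 2, against 0.72 to 2.11 TPM in the other 7. T cell markers stayed at 0.28 TPM or less, B cell markers summed to 21.4 to 34.5 TPM and epithelial markers to 1.74 to 6.26 TPM. The part of these differences in the results below was not tested, and in bulk RNA fewer cells of a type and less RNA per cell cannot be told apart.

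Levels are given in TPM, which is scaled to gene length, as mean ± SD over the 8 libraries. CTSD, the aspartic protease cathepsin D (Entrez 1509, chr11:1752755-1763927 in GRCh38.p14), was the most abundant member at 1285 ± 205 TPM. The next were ATP6V0B, a V0 subunit (Entrez 533, chr1:43974960-43978295), at 374 ± 94.9 TPM, the V1 subunit ATP6V1F at 370.5 ± 15.2 TPM and the membrane tetraspanin CD63 at 357 ± 49.4 TPM, and these 3 did not differ beyond their spread. In the other roles the leading genes were PPT1, which removes palmitate from proteins, at 270.1 ± 20.3 TPM, MAN2B1, the lysosomal alpha-mannosidase, at 183 ± 37.9 TPM, ATP6AP1, an assembly protein of the V-ATPase, at 127 ± 7.18 TPM, and TFE3 at 27.7 ± 4.45 TPM. TFEB had 13.7 ± 1.81 TPM. Over the 46 members past the filter the mean level ran from 5.35 TPM for ARSA, the sulfatase of sulfatide, to that of CTSD, with a median of 72.6 TPM. CTSL, the protease cathepsin L, had 0 to 2 counts per library, and ATP6V0A1, an isoform of the large V0 subunit, had 0 to 10, so neither was tested.

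The members varied over the 8 libraries about as much as a background set that was not matched to them in abundance. Their median coefficient of variation in CPM was 15.5%, beside 14.6% for the 10379 entries with a mean of at least 8 CPM. HEXA, a subunit of beta-hexosaminidase, varied most at 28.9%, followed by ATP6V0D1, the V0 subunit of the central stalk, at 28.5%. LAPTM5, a membrane protein of blood cell lysosomes, varied least at 3.68%. For 3 members another gene overlapped in the genome and held a sizeable count: PLTP at 42.9% of the CTSA count, CAP1 at 80.0% of the PPT1 count and GPHN at 38.1% of the ATP6V1D count. The span of LIPA also held IFIT3 at 9.67%, IFIT1 at 6.17%, IFIT5 at 1.57% and IFIT2 at 1.39% of the LIPA count. Whether reads were counted by strand is not stated by the labels or files at hand, so the values of CTSA, PPT1, ATP6V1D and LIPA are uncertain.

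The element bound by TFEB and TFE3 has CACGTG at its core, a sequence that reads the same on both strands. RefSeq promoter windows (GRCh38.p14, 250 bases before to 50 after a gene start) were matched for 36 of the 48 members, and 11 of these, 30.6%, held CACGTG, against 8.78% of 27305 genes and 13.1% of the 9564 genes past the count filter. The longer form, CACGTG with GT before it and AC after it, was in 3 members, GAA, MCOLN1 and ATP6V1G1, and in 0.421% of all genes and 0.931% of those past the filter. Both motifs were picked with earlier results known, and a match is a description of the letters in the window only. The stretches below are from holders with higher and lower values in the SLC7A2-line libraries numbered 2, 5′ to 3′ on the strand of the gene, with CACGTG in capitals. They are ATP6V0D1 (chr16:67481201-67481226, minus strand), ATP6V0B (chr1:43974893-43974936, plus), the V1 stalk subunit ATP6V1G1 (chr9:114587701-114587726, plus), the lysosomal calcium channel MCOLN1 (chr19:7522573-7522625, plus), CTSD (chr11:1763959-1763984, minus) and GAA, the lysosomal alpha-glucosidase (chr17:80101495-80101565, plus).
ATP6V0D1: cccttatggtCACGTGaggcgcttgc
ATP6V0B: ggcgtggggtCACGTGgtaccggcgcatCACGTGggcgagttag
ATP6V1G1: gctgtgcggtCACGTGacaacggggg
MCOLN1: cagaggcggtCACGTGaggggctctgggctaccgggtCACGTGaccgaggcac
CTSD: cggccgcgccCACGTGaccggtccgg
GAA: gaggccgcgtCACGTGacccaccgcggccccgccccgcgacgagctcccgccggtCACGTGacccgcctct
The CTSD stretch holds 1 copy 47 bases before the start, and the GAA stretch holds 2, from 76 to 31 bases before it. ATP6V0B has 2 copies 57 and 39 bases before its start, and ATP6V0D1 has 1 at 59 bases.

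**Figure D1:**
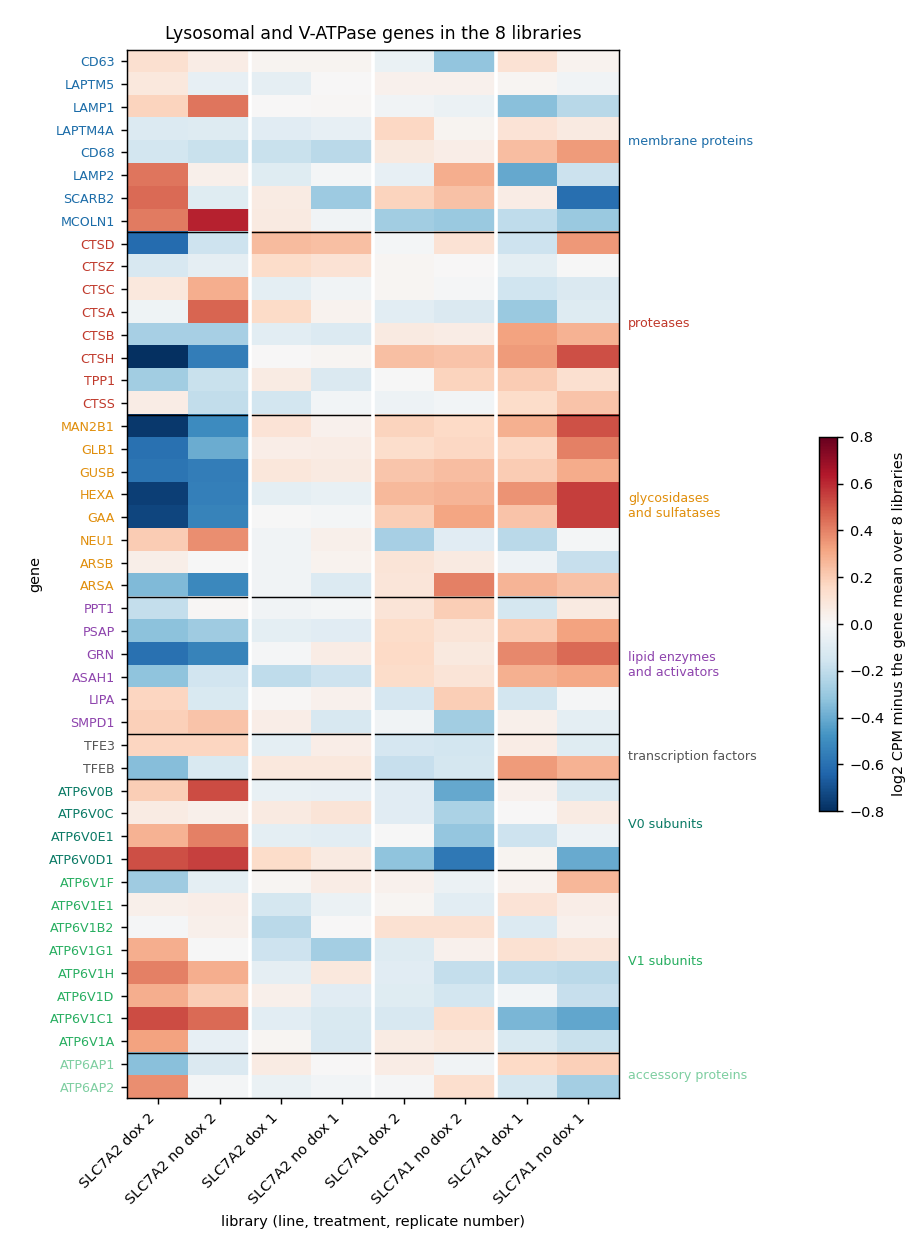
Log2 CPM (TMM-scaled) of the 46 members past the filter in each library, minus the mean of the gene over the 8 libraries, with genes as rows grouped by role and libraries as columns; the colour scale ends at 0.8 in either direction. The columns of SLC7A2 dox 2 and SLC7A2 no dox 2 differ from the other 6, with most glycosidases and sulfatases low (not NEU1 and ARSB) and most V0 subunits high.

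Dox was compared with no dox in each line, which is what the inducible constructs address. No member passed the test for dox in either line. CTSD had 2285 and 1253 CPM in dox-treated SLC7A2-line cells (libraries 1 and 2), against 2265 and 1711 CPM in untreated ones. It had 1711 and 1899 CPM in dox-treated SLC7A1-line cells, against 2445 and 2081 CPM in untreated ones. The 2 SLC7A1-line groups did not overlap and were lower with dox, while those of the SLC7A2 line overlapped. The log2 fold change was -0.17 ± 0.27 in the SLC7A2 line and -0.33 ± 0.27 in the SLC7A1 line (± SE; adjusted p = 1 in each, edgeR quasi-likelihood test with Benjamini-Hochberg adjustment).

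In each of 4 tests (dox in the SLC7A2 line, dox in the SLC7A1 line, the difference between these, and dox across both lines) edgeR called 0 of 46 members, with 0% of the 17503 entries called. Even the tagged SLC7A1 transcript was not called in its line. It had 844.5 and 366.5 CPM with dox (libraries 1 and 2), against 0.264 and 0 CPM without, here without TMM factors. Thus 0 calls do not show that the members did not respond. At an unadjusted p under 0.05 it found 0 of 46 members in each, beside 1.28% of all entries in the SLC7A2 line, 1.27% in the SLC7A1 line, 1.27% for the difference and 1.49% across both lines. DESeq2 also called 0 members, beside 0.0571%, 0.0514%, 0.114% and 0.00571% of entries in the same 4 tests. Here and below, DESeq2 shares are of the entries to which it gave an adjusted p. These were 17503 in each of these 4 tests and 13431 to 16485 in the tests of line and number. Across both lines 0 members had dox and no-dox libraries that did not overlap, where 0.491% of entries did so as higher and 0.4% as lower. Without the SLC7A2-line libraries numbered 2 the test across both lines called 0 members as well. None of these tests held a term for replicate number. With a term for number within each line, edgeR and DESeq2 also called 0 members in each of the 4 tests. Such fits called at most 3 entries by edgeR and 106 by DESeq2. Inside the SLC7A2 line the groups did not overlap for 3 of 46 members as higher and 3 as lower, beside 1794 and 1698 of 17503 entries. Inside the SLC7A1 line the counts were 6 and 6 members, beside 1945 and 1929 entries. Of these members, those with the highest and lowest fold changes follow. SCARB2, the receptor that sorts glucocerebrosidase, had 33.8 and 44.2 CPM in dox-treated SLC7A2-line cells, against 26.4 and 30.2 CPM in untreated ones, and 33.6 and 36.6 CPM in dox-treated SLC7A1-line cells, against 21.3 and 38.1 CPM in untreated ones. Its groups did not overlap in the SLC7A2 line and overlapped in the SLC7A1 line. The log2 fold change across both lines was 0.35 ± 0.19 (edgeR adjusted p = 1).

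ATP6V0D1 had 54.2 and 70.2 CPM in dox-treated SLC7A2-line cells, against 51.5 and 71.6 CPM in untreated ones. It had 49.8 and 39.2 CPM in dox-treated SLC7A1-line cells, against 37.0 and 32.9 CPM in untreated ones. Its groups overlapped in the SLC7A2 line and did not in the SLC7A1 line, at log2 fold changes of 0.01 ± 0.22 in the SLC7A2 line and 0.35 ± 0.23 in the SLC7A1 line, and the difference of -0.33 ± 0.32 was not called (edgeR adjusted p = 1). LIPA, the acid lipase of the lysosome, had 36.0 and 40.2 CPM in dox-treated SLC7A2-line cells, against 36.7 and 32.9 CPM in untreated ones, and 32.3 and 32.6 CPM in dox-treated SLC7A1-line cells, against 35.5 and 41.0 CPM in untreated ones. Its SLC7A2-line groups overlapped, and its SLC7A1-line groups did not, lower with dox. ATP6V1A, the catalytic V1 subunit, had 23.7 and 29.4 CPM in dox-treated SLC7A2-line cells, against 21.5 and 22.5 CPM in untreated ones. ATP6V1B2, the partner of ATP6V1A in the V1 ring, had 153 and 176 CPM with dox and 178 and 183 CPM without in that line, and PPT1 had 453 and 405 CPM with dox and 456 and 464 CPM without. These groups did not overlap, ATP6V1A higher and the other 2 lower with dox, and none was called (edgeR adjusted p = 1 each).

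As groups, the lysosomal genes and the V-ATPase genes were centred near 0 with dox. In the SLC7A2 line the median log2 fold change was -0.02 over 30 lysosomal genes, of which 11 were above 0, and -0.01 over 14 V-ATPase genes, of which 6 were above 0, beside 0.0070 over all entries; on the log2(TPM + 1) scale the lysosomal median was 0.060. In the SLC7A1 line the medians were -0.04 with 10 of 30 above 0, and 0.03 with 9 of 14 above 0, beside -0.0027 over all entries. Across both lines the medians were -0.03 and 0.02. The largest departure among the roles was in the V0 subunits of the SLC7A1 line, 4 of 4 above 0 with a median of 0.16; in the SLC7A2 line 1 of 4 was above 0, with a median of -0.03.

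The SLC7A2 line was set against the SLC7A1 line with 4 libraries each. edgeR called no member without a term for replicate number, yet many hydrolases were lower in every SLC7A2-line library, and the V0 subunit ATP6V0D1 was higher in every one. HEXA (Entrez 3073, chr15:72340924-72376014) had 266 and 167 CPM with dox and 269.9 and 192 CPM without in the SLC7A2 line, against 360.3 and 336 CPM with dox and 413 and 339 CPM without in the SLC7A1 line. Every SLC7A2-line library was below every SLC7A1-line library, the pair numbered 2 lowest. The log2 fold change was -0.69 ± 0.17 (edgeR adjusted p = 0.315), and the same-number differences were -0.44 and -0.61 for number 1 (dox, no dox) and -1.01 and -0.82 for number 2.

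ATP6V0D1 gave the opposite picture, with 54.2 and 70.2 CPM with dox and 51.5 and 71.6 CPM without in the SLC7A2 line, against 49.8 and 39.2 CPM with dox and 37.0 and 32.9 CPM without in the SLC7A1 line. All 4 SLC7A2-line libraries were above all 4 of the SLC7A1 line, with a log2 fold change of 0.65 ± 0.16 (edgeR adjusted p = 0.315). The lines also separated for CTSH, the aminopeptidase cathepsin H, at -0.63 ± 0.19 (edgeR adjusted p = 0.321), for GAA at -0.61 ± 0.18 (adjusted p = 0.321) and for MCOLN1 at 0.56 ± 0.17 (adjusted p = 0.325). CTSH had 99.3 and 57.1 CPM with dox and 100.1 and 67.3 CPM without in the SLC7A2 line, against 126 and 117 CPM with dox and 142 and 116 CPM without in the SLC7A1 line. MCOLN1 had 10.6 and 13.5 CPM with dox and 9.92 and 15.5 CPM without in the SLC7A2 line, against 8.80 and 8.33 CPM with dox and 8.23 and 8.21 CPM without in the SLC7A1 line. Thus CTSH was low and MCOLN1 high in all SLC7A2-line libraries.

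Between the lines edgeR called 0 of 46 members and 0% of entries. At an unadjusted p under 0.05 there were 20 members, 18 of them lysosomal and 2 of the V-ATPase, beside 12.8% of all entries. DESeq2 called 7 members beside 2.12% of entries: ATP6V0D1 as higher, and HEXA, GAA, CTSB (cathepsin B), ASAH1 (acid ceramidase), PSAP (the precursor of the saposins, which help lipid hydrolases) and CD68 (a macrophage membrane protein) as lower. The lines did not overlap for 13 members that were lower, all lysosomal, beside 5.11% of entries, and for 5 that were higher (CTSA, LAMP1, MCOLN1, ATP6V0D1 and ATP6V1H), beside 4.35% of entries. ASAH1 had 118 and 109 CPM with dox and 122 and 122 CPM without in the SLC7A2 line, against 166 and 151 CPM with dox and 169 and 146 CPM without in the SLC7A1 line, a log2 fold change of -0.42 ± 0.085 with like values at both numbers.

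These counts depended on whether the fit held a term for replicate number, which paired the libraries across dox within a line. With number within a line as a block, edgeR called 18 members (6 higher, 12 lower) beside 11.5% of entries, and DESeq2 called 25 (10 higher, 15 lower) beside 21.9% of entries. Such a block removes the difference between numbers inside a line from the error, so the spread between the numbers is not counted. Over 8 glycosidases and sulfatases the median log2 fold change between lines was -0.47, over all 30 lysosomal genes -0.14 with 12 above 0, over 14 V-ATPase genes 0.14 with 9 above 0, over 4 V0 subunits 0.29 with 4 above 0, and over all entries -0.0037. The same-number medians for V-ATPase genes were 0.07 (dox) and 0.04 (no dox) at number 1, and 0.28 and 0.21 at number 2; for lysosomal genes they were -0.10 and -0.12 at number 1, and -0.25 and -0.25 at number 2. Without the SLC7A2-line libraries numbered 2 the V-ATPase median was 0.04, the lysosomal median -0.13, HEXA -0.43 and ATP6V0D1 0.42, with 0 members called by edgeR.

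**Figure D2:**
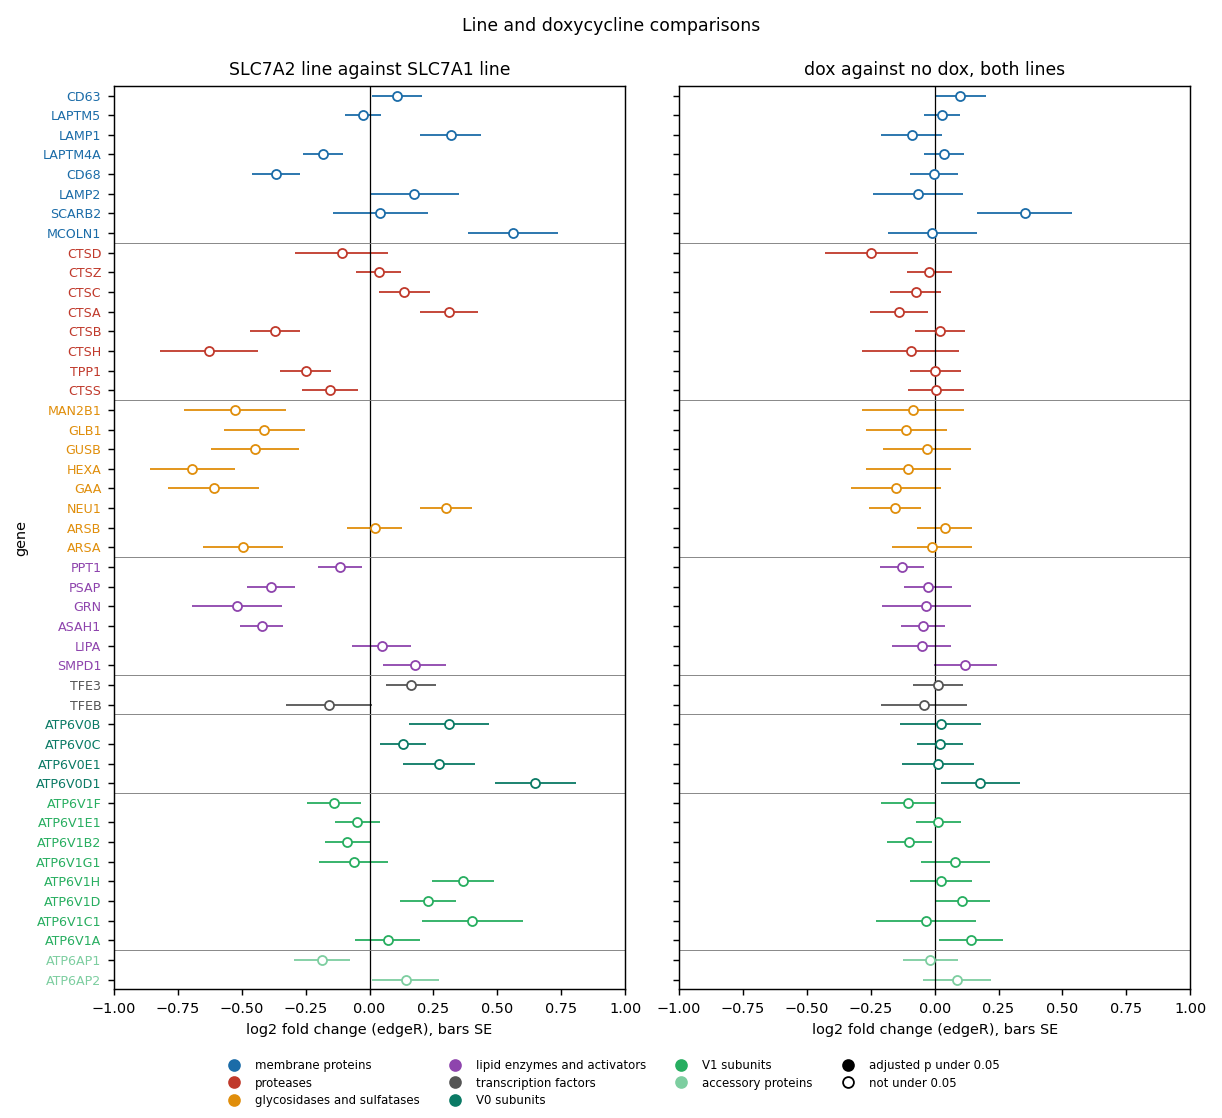
Log2 fold change ± SE (edgeR) of each of the 46 members, the SLC7A2 line against the SLC7A1 line on the left (4 libraries each) and dox against no dox across both lines on the right (4 libraries each). All points are open, meaning an adjusted p of 0.05 or more; on the left HEXA at -0.69 and ATP6V0D1 at 0.65 are at the ends, and on the right SCARB2 at 0.35 is the highest.

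Libraries numbered 2 were then set against those numbered 1 inside each line, dox and no dox pooled with a term for dox. The labels do not say what the number stands for. In the SLC7A2 line edgeR called 8 of 30 lysosomal genes as lower at number 2, 7 of them hydrolases. Among all entries 6.8% were called lower, and 10.3% of those with a mean of at least 8 CPM. The 8 were the glycosidases MAN2B1, GUSB, GAA, HEXA and GLB1, the proteases CTSD and CTSH, and GRN, which encodes progranulin, the precursor of the granulins. edgeR called 1 of 46 members as higher, beside 4.14% of all entries and 6.21% of those with a mean of at least 8 CPM. That member was ATP6V1C1, a V1 subunit that ties the V1 sector to the V0 sector. In each pair of values that follows the dox library stands before the library without dox.

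GUSB, beta-glucuronidase (Entrez 2990, chr7:65960684-65982213), had 120.4 and 123 CPM in the SLC7A2-line libraries numbered 2, against 193 and 190.2 CPM in those numbered 1. In the SLC7A1 line it had 211 and 214 CPM at number 2, against 208 and 222 CPM at number 1. The SLC7A2-line libraries numbered 2 were low, and the other 6 were all at 190.2 CPM or more. The log2 fold change was -0.65 ± 0.067 in the SLC7A2 line (edgeR adjusted p = 0.0126) and -0.01 ± 0.066 in the SLC7A1 line (adjusted p = 0.921). The difference between the lines was -0.64 ± 0.094 (adjusted p = 0.0351).

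MAN2B1 had 259 and 311 CPM in the SLC7A2-line libraries numbered 2, against 477 and 453 CPM in those numbered 1, a log2 fold change of -0.71 ± 0.10 (edgeR adjusted p = 0.0194). CTSH had 57.1 and 67.3 CPM at number 2, against 99.3 and 100.1 CPM at number 1, or -0.68 ± 0.089 (adjusted p = 0.0161). CTSD had 1253 and 1711 CPM at number 2, against 2285 and 2265 CPM at number 1, or -0.64 ± 0.14 (adjusted p = 0.0386). All 3 were low in both SLC7A2-line libraries numbered 2 without overlap, and lowest in the dox library. For CTSD the SLC7A1 line overlapped this range, with 1899 and 2081 CPM at number 2, against 1711 and 2445 CPM at number 1.

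GAA had 76.5 and 88.0 CPM in the SLC7A2-line libraries numbered 2, against 127 and 126 CPM in those numbered 1, a log2 fold change of -0.63 ± 0.096 (edgeR adjusted p = 0.0208). GRN had 157 and 164 CPM at number 2, against 236 and 248 CPM at number 1, or -0.59 ± 0.072 (adjusted p = 0.0145). HEXA had 167 and 192 CPM at number 2, against 266 and 269.9 CPM at number 1, or -0.58 ± 0.080 (adjusted p = 0.0178). These followed the same order, both libraries numbered 2 under both numbered 1. GLB1, lysosomal beta-galactosidase, did so too, with 162 and 186 CPM at number 2, against 253 and 255 CPM at number 1, or -0.55 ± 0.085 (adjusted p = 0.0208). By role, edgeR called 5 of 8 glycosidases and sulfatases as lower, where 6.8% of all entries and 10.3% of those with a mean of at least 8 CPM were so called, with a median of -0.57 over the 8. NEU1, the sialidase, went the other way without being called by edgeR, at 0.28 ± 0.070 (adjusted p = 0.0528), with 119 and 134 CPM at number 2, against 101 and 106 CPM at number 1. DESeq2 called 5 of the 8 as lower and 1, NEU1, as higher.

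Membrane proteins of the lysosome did not share the low values. Of 8, 7 were above 0, with a median of 0.18. edgeR called 0 of them, DESeq2 called LAMP1 (adjusted p = 0.00387) and limma on log2(TPM + 1) called MCOLN1 (adjusted p = 0.0408), both as higher. LAMP2, a major glycoprotein of the membrane, had 118 and 90.3 CPM in the SLC7A2-line libraries numbered 2, against 81.8 and 86.7 CPM in those numbered 1, and CD63 had 247 and 236 CPM at number 2, against 229.7 and 229.8 CPM at number 1. Both genes were higher in the 2 libraries numbered 2, by little for CD63. LAMP1, the other major glycoprotein, stood at 0.30 ± 0.084 (edgeR adjusted p = 0.0720). MCOLN1 had 13.5 and 15.5 CPM at number 2, against 10.6 and 9.92 CPM at number 1, or 0.50 ± 0.14 (adjusted p = 0.0772). Its libraries numbered 2 were the highest of the 8.

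Among V-ATPase genes ATP6V1C1 had 51.0 and 48.6 CPM in the SLC7A2-line libraries numbered 2, against 33.5 and 32.7 CPM in those numbered 1, a log2 fold change of 0.59 ± 0.11 (edgeR adjusted p = 0.0284). ATP6V0B had 258 and 323 CPM at number 2, against 216 and 215 CPM at number 1, or 0.43 ± 0.15 (adjusted p = 0.114). ATP6V0D1 had 70.2 and 71.6 CPM at number 2, against 54.2 and 51.5 CPM at number 1, or 0.43 ± 0.12 (adjusted p = 0.0719). In all 3 the libraries numbered 2 were the highest of the 8. Of these ATP6V1C1 alone passed the main edgeR test; DESeq2 also called ATP6V0D1 (adjusted p = 0.00678) and ATP6V0B (adjusted p = 0.0107), and edgeR on genes with a symbol only called ATP6V0D1 (adjusted p = 0.0397). ATP6V1F, a small V1 subunit, had 104 and 120.4 CPM at number 2, against 128 and 133 CPM at number 1, and ATP6AP1 had 152 and 177 CPM at number 2, against 201 and 192 CPM at number 1. Both were lower at number 2 without overlap, at -0.22 and -0.26, and were not called by edgeR; DESeq2 called ATP6AP1 (adjusted p = 0.0331). Over 14 V-ATPase genes 11 were above 0 with a median of 0.25, and over 30 lysosomal genes 14 were above 0 with a median of -0.04, a gap of 0.29, beside 0.0070 over all entries. On the log2(TPM + 1) scale, which set the median of entries of at least 8 CPM at 0.13, the lysosomal median was above 0, at 0.094, and the gap was 0.28.

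TFE3 and TFEB differed in direction, and neither was called by edgeR. TFE3 had 78.6 and 78.5 CPM in the SLC7A2-line libraries numbered 2, against 65.9 and 72.2 CPM in those numbered 1, or 0.18 ± 0.088 (edgeR adjusted p = 0.215). TFEB had 18.5 and 21.5 CPM at number 2, against 24.8 and 24.9 CPM at number 1, or -0.31 ± 0.11 (adjusted p = 0.109). For each gene the numbers did not overlap, TFE3 higher and TFEB lower at number 2.

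In the SLC7A2 line edgeR thus called 9 of 46 members, beside 10.9% of all entries: 1 as higher, beside 4.14%, and 8 as lower, beside 6.8%. Among the entries with a mean of at least 8 CPM, which every tested member exceeds, 16.5% were called, 6.21% as higher and 10.3% as lower. DESeq2 called 21 (9 higher, 12 lower), beside 27.4% of the 13431 entries to which it gave an adjusted p. The numbers did not overlap for 17 members that were higher, beside 30% of entries, and for 18 that were lower, beside 30.3%. The count of calls rested on few libraries: without SLC7A2 dox 1, SLC7A2 dox 2 or SLC7A2 no dox 1 in turn edgeR called 0 members, and without SLC7A2 no dox 2 it called 8. CTSD lost its call in 8 of 8 such fits, each without 1 library, while ATP6V1C1 kept it in 2 of 8, and the remaining 7 in 5 of 8. With limma on log2(TPM + 1) ATP6V1C1, CTSD, GAA and GLB1 lost their call, at adjusted p = 0.0506, 0.0705, 0.0542 and 0.0538, and 8 members were called, MCOLN1 among them at 0.0408. Without a term for dox CTSD missed the threshold too, at an edgeR adjusted p of 0.0773.

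**Figure D3:**
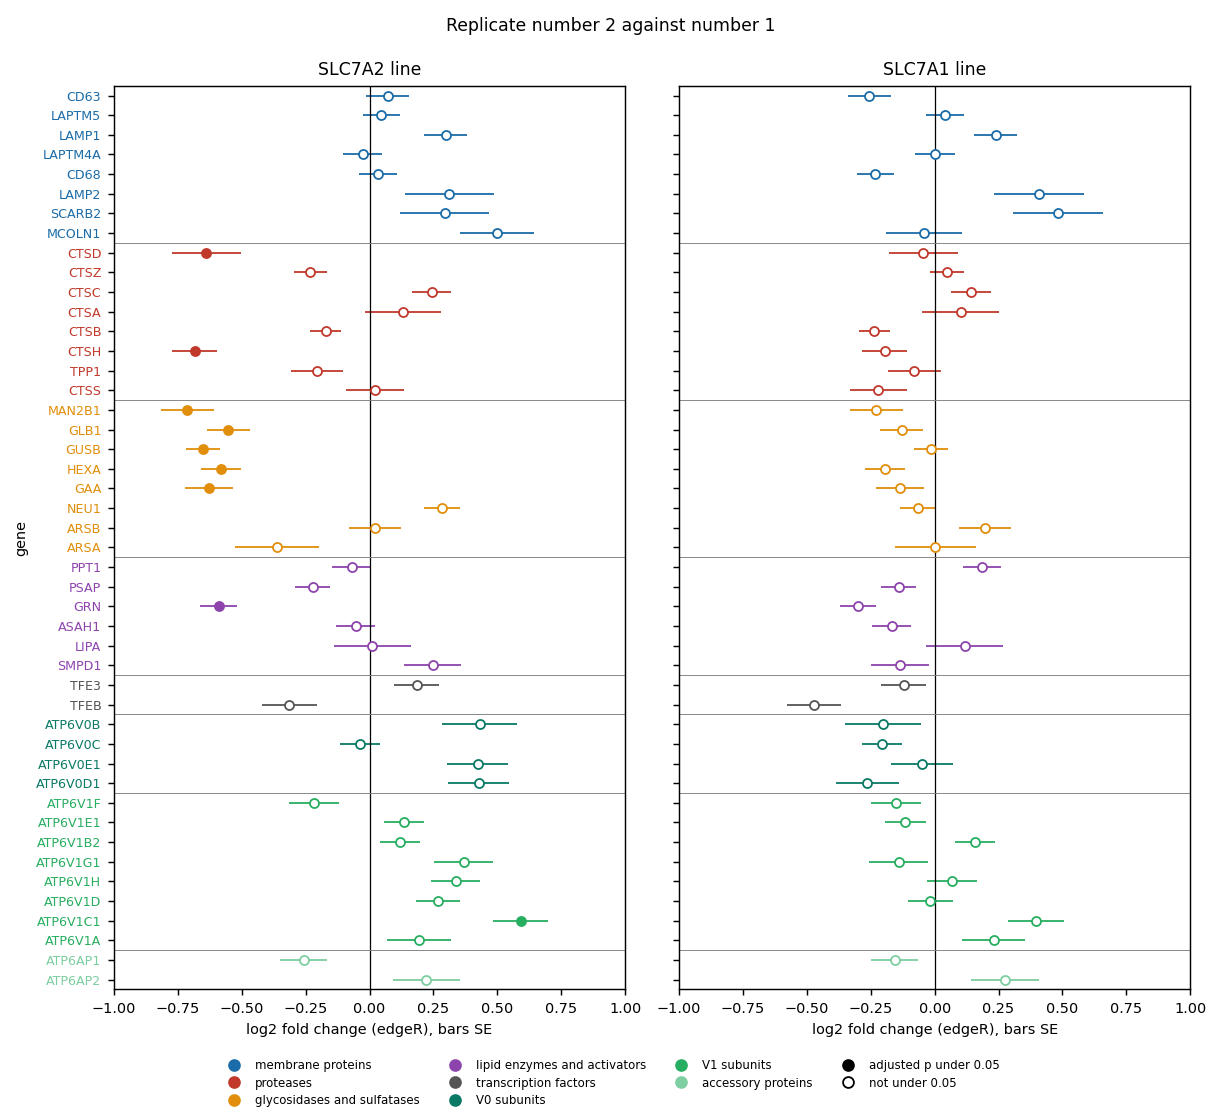
Log2 fold change ± SE (edgeR) of each of the 46 members, libraries numbered 2 against those numbered 1, in the SLC7A2 line on the left and the SLC7A1 line on the right (2 libraries each). Filled points have an adjusted p under 0.05: 9 on the left, 8 of them below 0, and none on the right.

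The V-ATPase transcripts made up a larger share beside the lysosomal ones in the SLC7A2-line libraries numbered 2. Summed TPM of the 15 V-ATPase genes was 1810 (dox) and 1814 (no dox) there, against 1516 and 1506 in the SLC7A2-line libraries numbered 1, 1394 and 1362 in the SLC7A1 line at number 2 and 1498 and 1409 at number 1. As a percent of the summed TPM of the 31 lysosomal genes this was 40.5% and 39.0% in the SLC7A2-line libraries numbered 2, against 30.6% and 31.3% in those numbered 1. The SLC7A1 line had 31.2% and 28.1% at number 2, against 32.8% and 29.2% at number 1. Without CTSD, the most abundant gene, the values were 51.5% and 52.6% at number 2 in the SLC7A2 line, against 44.3% and 45.2% at number 1, and 39.3% to 43.4% in the SLC7A1 line. The V0 sum, led by ATP6V0B, was 912 and 953 TPM at number 2 in the SLC7A2 line, against 544 to 700.2 TPM in the other 6 libraries. The sum of glycosidases and sulfatases was 453 and 471 TPM there, against 596 to 716 TPM in the other 6.

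**Figure D4:**
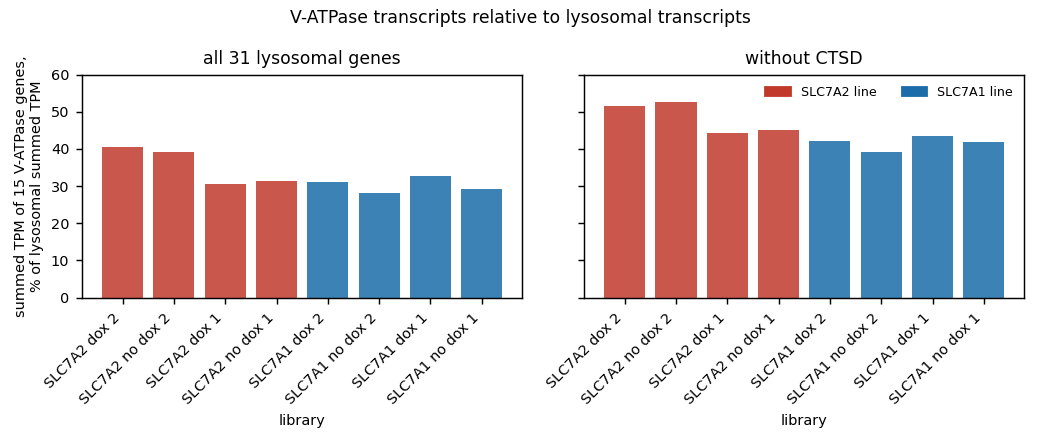
Summed TPM of the 15 V-ATPase genes as a percent of the summed TPM of the lysosomal genes, 1 bar for each library, with all 31 lysosomal genes on the left and without CTSD on the right. The bars of SLC7A2 dox 2 and SLC7A2 no dox 2, 40.5% and 39.0% on the left, are above the other 6, which run from 28.1% to 32.8%.

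In the SLC7A1 line edgeR called 0 of 46 members between numbers, beside 1.77% of entries. At an unadjusted edgeR p under 0.05 there were 11 of 46 members, beside 3850 of 17503 entries. Among entries with a mean of at least 8 CPM it was 3112 of 10379. DESeq2 called 7 (LAMP1 and ATP6V1C1 higher, GRN, CTSB, CD63, CD68 and TFEB lower), beside 15.1% of entries. The numbers did not overlap for 13 members that were higher, beside 27.5% of entries, and for 16 that were lower, beside 27.8%. TFEB had 20.7 and 21.3 CPM at number 2, against 29.7 and 28.4 CPM at number 1, a log2 fold change of -0.47 ± 0.11 (edgeR adjusted p = 0.0791). GRN had 266 and 251 CPM at number 2, against 311 and 325 CPM at number 1, or -0.30 ± 0.071 (adjusted p = 0.0880). Both genes were low in both libraries numbered 2. The median was -0.05 over 30 lysosomal genes and -0.08 over 14 V-ATPase genes. LAMP2 and SCARB2 lay at the other end, at 0.41 ± 0.18 (adjusted p = 0.242) and 0.48 ± 0.18 (adjusted p = 0.188). LAMP2 had 83.6 and 107 CPM at number 2, against 66.1 and 77.7 CPM at number 1.

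The difference of the number effects between the lines was called for 1 member, GUSB, beside 2.86% of entries by edgeR; GUSB was called in 0 of 8 fits without 1 library and not by limma on log2(TPM + 1), at adjusted p = 0.107. By DESeq2 it was called for 14 (5 higher, 9 lower), beside 15% of entries. For ATP6V0D1 the difference was 0.69 ± 0.17 (edgeR adjusted p = 0.0933), for ATP6V0B 0.63 ± 0.21 (adjusted p = 0.155) and for CTSD -0.59 ± 0.19 (adjusted p = 0.146). ATP6V0D1 and ATP6V0B were higher at number 2 in the SLC7A2 line and lower at number 2 in the SLC7A1 line, where ATP6V0B had 211 and 169 CPM at number 2, against 229.8 and 207 CPM at number 1. The 4 V0 subunits were all above 0 in this difference, with a median of 0.55. The glycosidases and sulfatases had a median of -0.41.

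**Figure D5:**
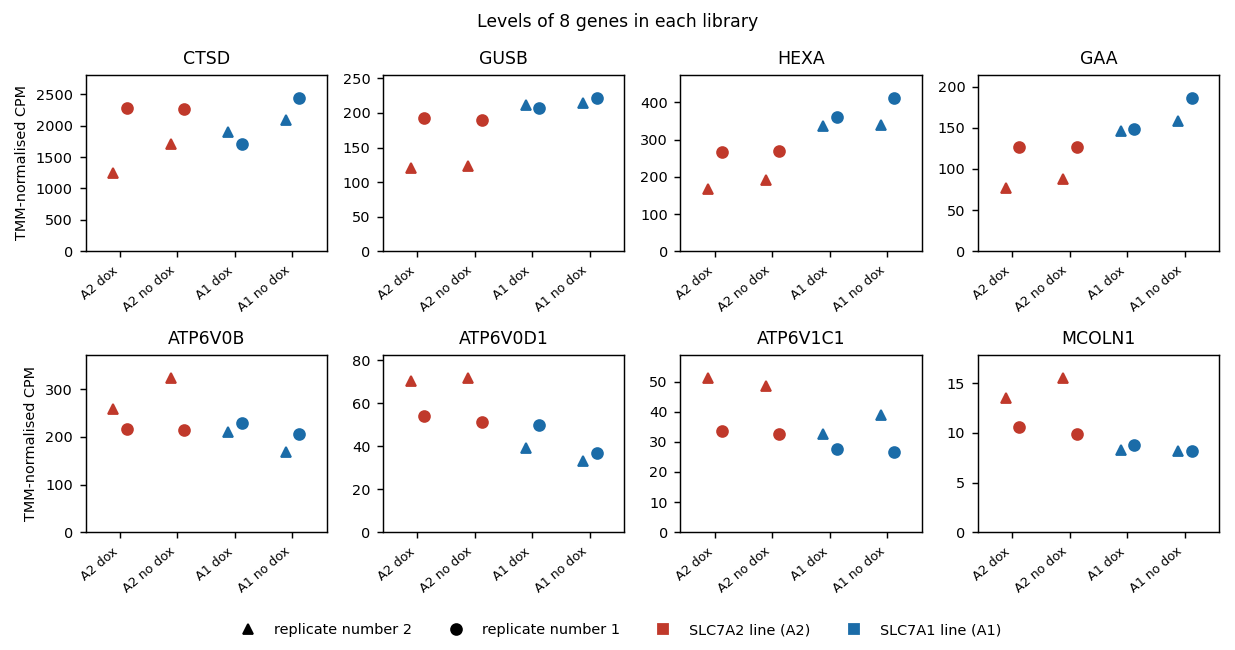
TMM-scaled CPM of CTSD, GUSB, HEXA, GAA, ATP6V0B, ATP6V0D1, ATP6V1C1 and MCOLN1 in each library, 1 panel for each gene, by group; triangles are libraries numbered 2 and circles those numbered 1. GUSB stands at 120.4 and 123 CPM in the SLC7A2-line libraries numbered 2 and at 190.2 to 222 CPM in the other 6.

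Other genes of the pathway, taken from lists set up with earlier results known, gave a similar mix. For number in the SLC7A2 line, edgeR called 4.14% of all entries as higher and 6.8% as lower. Among those with a mean of at least 8 CPM the shares were 6.21% and 10.3%. The counts of edgeR calls for that comparison, markers included, stand beside these shares. In the SLC7A2 line edgeR called 0 of 23 other lysosomal enzymes as higher at number 2 and 5 as lower. By direction alone 9 were above 0 and 14 below. Among those called were GM2A, the activator of ganglioside breakdown, at -1.13 ± 0.11 (edgeR adjusted p = 0.0126), and IDUA, which cuts iduronic acid from glycosaminoglycans, at -1.06 ± 0.11. MANBA, the beta-mannosidase, at -0.76 ± 0.10, and DPP7, a dipeptidyl peptidase, at -0.69 ± 0.11, were also called. Of 22 other membrane and sorting proteins 12 were above 0 and 10 below. The 3 called higher were CD164 at 0.89 ± 0.18, the mannose 6-phosphate receptor IGF2R at 0.45 ± 0.090 and the cholesterol transporter NPC1 at 0.43 ± 0.10. The 1 called lower was NPC2, the partner of NPC1, at -0.31 ± 0.073. Of 13 other V-ATPase and assembly genes 7 were above 0 and 6 below. The 1 called higher was TMEM199 at 0.47 ± 0.10, and 3 were called lower. These 3 were TCIRG1, the a3 isoform of the large V0 subunit, at -0.54 ± 0.066 (edgeR adjusted p = 0.0145), ATP6V0E2, an isoform of ATP6V0E1, at -0.58 ± 0.14, and ROGDI at -0.45 ± 0.089. The V0 sector thus held called genes below 0 outside the 48, while ATP6V0E1, the other isoform, stood at 0.42 ± 0.12 (adjusted p = 0.0736). The called V-ATPase genes did not go 1 way. Of 5 other genes of the TFEB family and its regulator folliculin edgeR called 0, and DESeq2 called 1, FNIP2, as higher. In the SLC7A1 line edgeR called IDUA at -0.84 ± 0.11 and PIP4P1, a lysosomal lipid phosphatase, at -0.73 ± 0.10 as lower at number 2. There edgeR called 1.77% of entries in either direction. For dox or between the lines edgeR called 0 genes of these lists without a term for replicate number. DESeq2 called 2 between the lines, PLA2G15, a lysosomal phospholipase, and NPC2, both as lower, beside 2.12% of entries. Between the lines edgeR with the replicate block called 6 of the 23 other enzymes as lower, beside 11.5% of entries in either direction. It also called 1 higher and 1 lower in each of the membrane and V-ATPase lists. Of 12 monocytic markers 3 were above 0 and 9 below at number 2 in the SLC7A2 line, and edgeR called 4 as lower. These 4 were ELANE, the neutrophil elastase of myeloid granules, at -1.48 ± 0.18 (edgeR adjusted p = 0.0145), PRTN3 at -1.25 ± 0.19, AZU1 at -1.11 ± 0.14 and CD4 at -0.51 ± 0.082. Their part in the lower hydrolase values was not tested.

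Members with CACGTG in the promoter window were set beside those without. In the SLC7A2 line 9 of 11 holders past the filter were above 0 at number 2, with a median log2 fold change of 0.28 and 2 called, CTSD and GAA, both lower. Of 23 members with a window and no match 10 were above 0, with a median of -0.04 and 5 called lower. LAMP1, with 6 copies, was at 0.30, and GAA and MCOLN1, which hold the longer form, were at -0.63 and 0.50. In the other pathway genes the holders did not stand higher, with 7 of 15 above 0 beside 18 of 34 without a match, and over all genes with a window 57.9% of holders were above 0 beside 53.2% of the rest. In the SLC7A1 line 3 of 11 holders and 8 of 23 others were above 0 at number 2.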

How the data were processed

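Poly(A) RNA of 8 libraries was used, 2 in each of 4 groups taken from the sample titles. Per the file headers, the authors deposited for each gene an expected count, an FPKM and a TPM, both scaled to gene length and depth. The FPKM was not used. Tools in the submitters' processing notes are RSEM 1.3.1, Bowtie2 2.3.4.3, HISAT and DESeq2 1.4.5, beside the build hg38; roles and strand use are not given in the sources at hand. Absent genes counted as 0. Unnamed assembled loci took 6.56% to 7.25% of each library and stayed in the fits. In R 4.3.3, expected counts were rounded, filtered with filterByExpr (minimum count 10, minimum total 15; 17503 entries left), TMM-scaled and passed to the quasi-likelihood test of edgeR 4.0.16, with Benjamini-Hochberg adjustment over all entries at 0.05. Each SE was derived as the size of the log2 fold change divided by the root of its F statistic. CPM of single genes are TMM-scaled. Of the 8 comparisons 7 were set from the labels, and the difference of number effects was added after the data were seen. The additive fits held line and dox, or the 4 cells of line and number with dox.

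The members, lists, motifs and tests were chosen with earlier results of these data known. Members with values in every library are those called, the most abundant of each role, TFEB, TFE3 and MCOLN1, and for each comparison up to 2 at either end among members whose groups did not overlap; NEU1, LAMP1 and ASAH1 were added after their values were seen. Same-numbered dox and no-dox libraries of a line deviated together, with a correlation of 0.312 in the SLC7A2 line and 0.197 in the SLC7A1 line. The main tests of dox and of line held no term for number and did not pair the libraries. The fits with the replicate block took the numbers as pairs, and the labels do not say what the numbers mark. Alternatives were DESeq2 1.42.0, RLE scaling, no filter, named genes only, limma 3.58.1 on log2(TPM + 1), the replicate block (with DESeq2 added later), no dox term, each library left out, and both SLC7A2-line libraries numbered 2 left out. Only the fits for dox in each line and across both lines were tested on simulated data, not those for line, number or differences of effects. Promoter letters come from RefSeq (GRCh38.p14). Floors of 3 counts reflect counting error alone. The values of 1 called gene of the pathway lists are not reported here.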

Additional observations from a re-analysis of the deposited data

Results flagged for a closer look

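Over 100 sets of 4 values (summed lists and named members, in each line and in each dox arm), 4 held a library far from the other 3, where chance gives about 1 in 20, or 5. ATP6V1F had 104.4 CPM in SLC7A2 dox 2, the lowest of the 4 dox libraries. CD63 had 181.6 CPM in SLC7A1 no dox 2, the lowest of the 4 libraries without dox. GLB1 had 322 CPM in SLC7A1 no dox 1, the highest of the 4 SLC7A1-line libraries. The summed TPM of the 31 lysosomal genes was 4648 in SLC7A2 no dox 2, the lowest of the 4 libraries without dox.

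For 6 members the lines gave different values for the effect of replicate number. GUSB passed the test of that difference, at a log2 value of -0.64 (edgeR, SLC7A2 line minus SLC7A1 line). For the other 5 both pairs of the SLC7A2 line were higher at number 2 and both pairs of the SLC7A1 line were lower, and the tested difference did not pass: 0.63 for ATP6V0B, 0.69 for ATP6V0D1, 0.33 for CD63, 0.54 for MCOLN1 and 0.31 for TFE3. For MCOLN1 the SLC7A1-line pair without dox was nearly equal, at 8.21 CPM (number 2) against 8.23 CPM (number 1).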

How the results depend on the processing

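With 2 libraries a group, a missed threshold does not show that a gene did not differ. No called value changed sign. DESeq2 called 10, 9, 20 and 1 entries for dox in the SLC7A2 line, dox in the SLC7A1 line, their difference and dox across both lines, and 349 with 7 members between lines, where edgeR called 0. It called 3686 entries and 21 members for number in the SLC7A2 line, 2126 and 7 in the SLC7A1 line, and 2012 and 14 for the difference. The replicate block in edgeR gave 1, 2 and 3 entries for dox in the SLC7A2 line, the SLC7A1 line and both, and 2011 with 18 members between lines. DESeq2 with the replicate block gave 26, 45, 21 (difference), 106 and, between lines, 3531 with 25 members. With named genes only, number gave 833 entries and 2 members (GRN, TFEB) in the SLC7A1 line, and 906 and 2 (GUSB, ATP6V0D1) for the difference. With no filter 2 entries were called for dox in the SLC7A1 line, 2 across both lines and 3 between lines, and the V-ATPase median minus the lysosomal one became 0.015, with a V-ATPase median of -0.039, in the SLC7A1-line number comparison.

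With limma on TPM entries called were 1, 2 and 3 for dox in the SLC7A2 line, the SLC7A1 line and their difference, and 1135, 60 and 255 for number in the SLC7A2 line, the SLC7A1 line and their difference, with 0 members for the last. That scale moved the median of entries of at least 8 CPM to 0.13 for number in the SLC7A2 line and 0.14 between lines. The lysosomal medians were 0.094 and -0.0094 there, 0.060 for dox in the SLC7A2 line and -0.0017 for the difference of number effects; those of the V-ATPase were 0.38, 0.28 and 0.33 for the difference. Leaving out both SLC7A2-line libraries numbered 2 gave 1 entry for dox across both lines and 1 between lines. With each library left out in turn, values are given as ranges over 8 fits. Number in the SLC7A2 line gave 0 to 1541 entries, 0 to 9 members, a lysosomal median of -0.12 to -0.041, a V-ATPase median of 0.18 to 0.28 and a gap between these of 0.27 to 0.39. Number in the SLC7A1 line gave 1 to 337 entries, a V-ATPase median of -0.089 to -0.023 and a gap of -0.029 to 0.046. The difference of number effects gave 1 to 26 entries, 0 members, medians of -0.20 to -0.041 (lysosomal) and 0.16 to 0.26 (V-ATPase) and a gap of 0.25 to 0.46. Dox in the SLC7A2 line gave 0 to 1 entries, medians of -0.066 to 0.084 and -0.089 to 0.17 and a gap of -0.16 to 0.22; the difference of dox effects gave a lysosomal median of -0.073 to 0.12 and a gap of -0.24 to 0.10. Between lines 0 to 1 entries were called. Causes of these shifts were not tested.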
